A study of Mus musculus with 12 samples.

Results

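Control cells of 2 kinds, both of the mouse microglial line BV2, were compared with each other: 3 libraries of cells given a scrambled hairpin and 3 libraries of cells given an empty construct. These 6 libraries were chosen by their treatment labels, out of 12 in the series, and neither group was meant to alter Spi1. Of 24062 entries in each table, 11197 genes averaged 1 FPKM or more in these 6 libraries and were tested. BV2 is an immortalised line of microglia, the macrophages that live in the brain. The other 6 libraries are 3 of Spi1 knockdown by a short hairpin RNA and 3 of Spi1 overexpression from a mouse cDNA. Per the labels, every construct was transient, no further treatment was given, and cells of all 4 groups were collected by FACS. The scrambled controls belong to the knockdown experiment and the empty controls to the overexpression experiment. The kind of construct and the experiment therefore cannot be told apart in this contrast. Nothing in the labels says that replicate libraries are separate cultures, so the p-values reflect the spread among these libraries alone, and that spread may be technical.

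A short hairpin RNA uses the cell's own microRNA pathway: exportin-5 carries it out of the nucleus, Dicer cuts it, and an Argonaute protein loads it as a guide. Hairpins built into a microRNA backbone are first cut by Drosha, and the labels do not say which kind was used. A scrambled hairpin uses the same steps with a guide that has no intended target, while an empty vector makes no guide. Both kinds of construct bring foreign nucleic acid into macrophages, which sense it through RNA and DNA receptors and answer with interferon and inflammatory genes. Spi1 encodes PU.1, an ETS family transcription factor that myeloid cells need for their identity.

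Depth was alike in both groups, at 22.3 to 27.8 megareads on genes per control library. Levels are in FPKM, reads scaled to gene length and to library total, and differences are scrambled minus empty on the log2(FPKM + 1) scale unless another contrast is named. Markers of most other cell types were at or near 0. Summed levels reached at most 0.191 FPKM over 10 neuron markers, 0.194 over 8 astrocyte markers, 0.103 over 7 fibroblast markers and 0.0327 over 6 epithelial markers. They were 3.53 to 4.37 FPKM for T and NK cells, nearly all of it Lck, and 3.03 to 5.41 FPKM for neutrophils and mast cells, most of it S100a8. Kdr at 60.5 FPKM made up most of the endothelial list and Cnp at 9.32 FPKM most of the oligodendrocyte list. Their sums ranged from 95.5 to 96.9 and from 7.37 to 9.41 in the scrambled controls, and from 85.8 to 107.0 and from 8.71 to 12.8 in the empty controls. The macrophage genes Csf1r, Itgam, Tyrobp and Spi1 itself were tested among the expressed genes, whereas of 18 genes of homeostatic microglia 8 reached a mean of 1 FPKM. Tmem119 was among these 8, at 4.67, 4.43 and 4.30 FPKM in the scrambled and 3.73, 2.31 and 3.67 FPKM in the empty controls. Mef2c, also among the 8, is described below. Sall1 and Siglech, which define microglia in the brain, were listed at 0 in all 6 controls, and P2ry12 and Cx3cr1 were below the filter. In bulk RNA, fewer cells of a type and less RNA per cell cannot be told apart.

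The empty controls were the more scattered group, and empty control 2 stood apart from the other 2. Over the 11197 tested genes, the median absolute difference between 2 libraries was 0.0979 to 0.135 within the scrambled controls and 0.132 to 0.246 within the empty controls. Between a scrambled and an empty library it was 0.125 to 0.229, with a median of 0.179, so most distances between the groups lay within the range found among the empty controls themselves. The median standard deviation of a gene was 0.0997 in the scrambled and 0.155 in the empty controls. A standard deviation above 0.5 was found for 152 genes among the scrambled and 409 among the empty controls. In 273 of the 409, empty control 2 was the library farthest from its group.

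**Figure D1:**
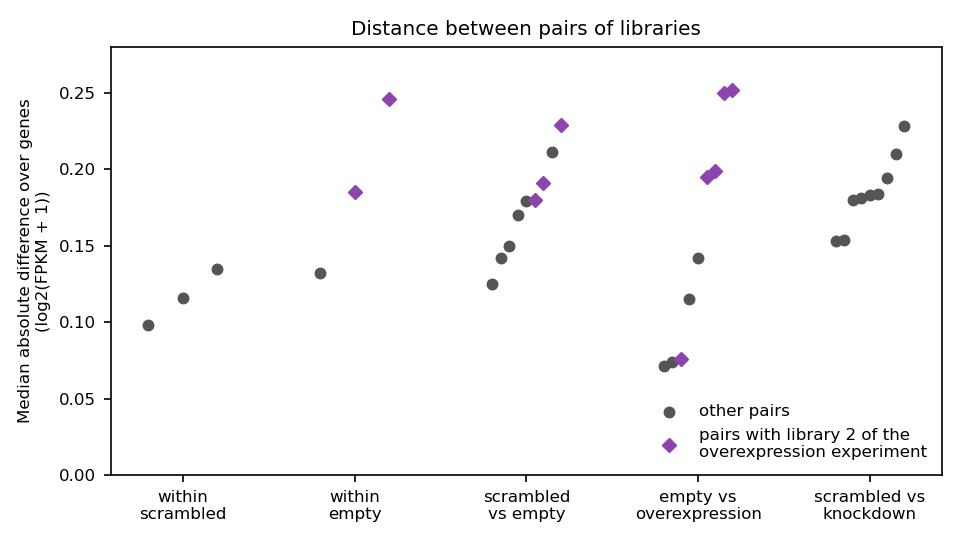
Each point is a pair of libraries, and the vertical axis is the median absolute difference over 11197 tested genes in log2(FPKM + 1). Purple diamonds are pairs that include empty control 2 or overexpression library 2. Pairs of scrambled against empty controls span 0.125 to 0.229, a range that overlaps the 0.132 to 0.246 found within the empty controls.

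Few genes passed the adjusted test between the control groups, which with 3 libraries each does not show that the other genes were alike. With limma on the 6 control libraries, 7 of 11197 genes passed a Benjamini-Hochberg adjusted p of 0.05, which is 0.0625% of those tested. Levels of 4 were higher in the scrambled controls (Csf3, Cxcl2, Fos and Pirb, 0.0357% of tested genes) and levels of 3 were lower (Uchl3, Cldn25 and an entry listed as the date 2-Sep, 0.0268%). An unadjusted p under 0.05 was reached by 1730 genes, 15.5% of those tested, of which 455 were higher (4.06%) and 1275 lower (11.4%). The 3 scrambled libraries did not overlap the 3 empty libraries for 2564 genes, 22.9% of those tested, with 799 higher (7.14%) and 1765 lower (15.8%) in the scrambled controls.

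The median difference over all tested genes was -0.04, with 4553 genes above 0 and 6644 below, and the median standard error was 0.111. That median was 0.00312 under median-of-ratios and 0.00513 under trimmed-mean scaling, so its sign depends on the scaling. For 8846 genes, 79.0% of those tested, the 95% confidence interval of the difference lay within a 1.5-fold change of FPKM + 1 in either direction. At low levels this allows a larger change of FPKM itself. All counts of genes bounded within 1.5-fold below are on this scale. These intervals bound each gene separately and carry no adjustment over genes.

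The number of calls depended on which libraries were in the fit. Without empty control 2, limma called 105 genes at the same adjusted threshold, 0.938% of those tested, 15 higher (0.134%) and 90 lower (0.804%), and the 7 genes were all among them. Without scrambled control 1 or without empty control 3 the count was 0, without scrambled control 2 or without empty control 1 it was 1 (Uchl3), and without scrambled control 3 it was 2 (Uchl3 and Csf3). With all 12 libraries setting the spread, 467 genes were called, 4.17% of those tested, of which 75 were higher (0.67%) and 392 lower (3.5%), again with the 7 among them. That fit treats the 12 libraries as independent, although same-numbered libraries of an experiment deviated together, and every call taken from it rests on that spread. Among the 6 fits that each left out 1 control library, Uchl3 was called in 4, Csf3 in 2 and the other 5 genes in 1, the fit without empty control 2.

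**Figure D2:**
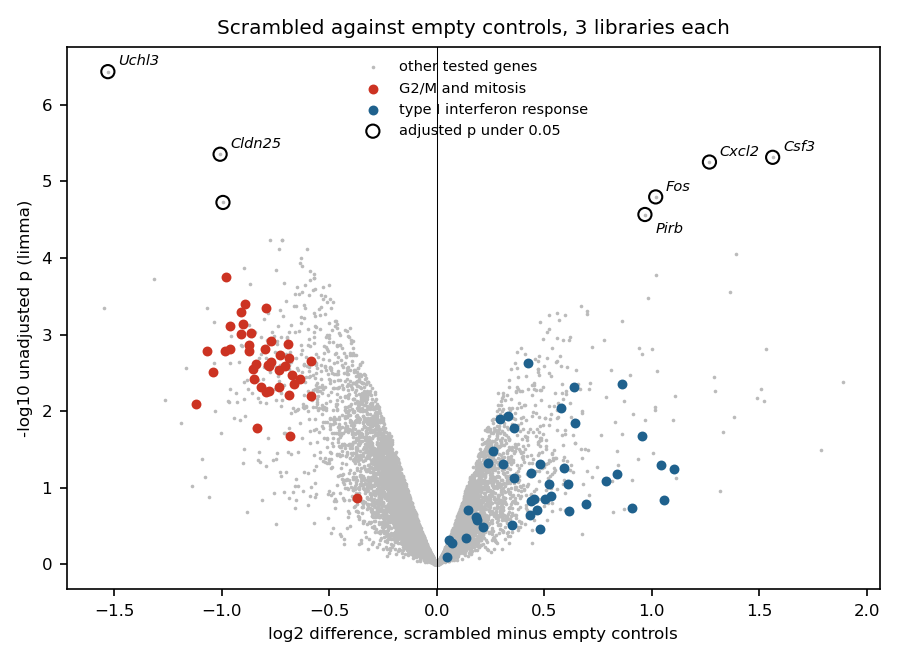
Each point is a tested gene, with the difference scrambled minus empty in log2 units across and the negative log10 of limma's unadjusted p upward. Circles mark the 7 genes with an adjusted p under 0.05. The 41 tested G2/M genes (red) all lie left of 0 and the 42 tested interferon response genes (blue) all lie right of 0, with none of either list circled.

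Uchl3, a ubiquitin C-terminal hydrolase that releases ubiquitin and NEDD8 from small adducts, had the smallest p of all genes. It lies on chr14:101653967-101696125 (mm10, plus strand), where no other annotated gene overlaps its exons. Its levels were 11.9, 13.7 and 12.2 FPKM in the scrambled controls against 36.8, 38.3 and 39.4 FPKM in the empty controls. The highest scrambled library was far under the lowest empty library, and the 6 treated libraries lay with the empty controls, at 35.2, 41.1 and 39.1 FPKM in knockdown and 39.1, 40.4 and 37.8 FPKM in overexpression. The difference was -1.53 (SE 0.0864, n = 3 against 3, limma BH-adjusted p = 0.00415), a mean 3.04-fold higher in the empty than in the scrambled controls. When 1 control library was left out, its adjusted p ranged from 0.013 to 0.0814, and it passed in 4 of these 6 fits. Knockdown minus overexpression gave -0.02, and the difference between the 2 contrasts, -1.51, had an adjusted p of 0.000333 in the 12-library limma fit. The control difference for which Uchl3 was called is part of that test, so it is no separate result. The same holds for the other called genes below.

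Uchl4, a near copy of Uchl3, can share its reads, so both values are uncertain to that degree. Uchl4 stood at 0.334, 0.911 and 0.670 FPKM in the scrambled and 1.62, 1.26 and 1.55 FPKM in the empty controls, low levels whose groups did not overlap either. The difference of -0.61 did not pass (limma BH-adjusted p = 0.121). Uchl5, a proteasome-bound member of the same enzyme family, had 40.3, 44.0 and 42.8 FPKM against 52.3, 53.8 and 48.6 FPKM, also without overlap and not called (difference -0.28, adjusted p = 0.186). The other 2 members, Uchl1 and Bap1, had differences of -0.03 and 0.01 with overlapping groups. Uchl4 and Uchl5 were set beside Uchl3 after their values were seen.

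Cldn25 is absent under this symbol from the annotation used for gene positions. Going by its symbol, it belongs to the claudin family, proteins best known from tight junctions. Its levels were 5.94, 5.73 and 6.50 FPKM in the scrambled and 13.4, 12.8 and 13.3 FPKM in the empty controls, with each group within a narrow band. Knockdown libraries had 12.6, 15.3 and 14.5 FPKM and overexpression libraries 13.1, 13.02 and 12.9 FPKM, so here too the scrambled controls were below the other 9 libraries. The difference was -1.01 (SE 0.0814, limma BH-adjusted p = 0.0157), and its difference from the treated contrast was -1.12 (adjusted p = 0.0013). The entry written as 2-Sep, a symbol turned into a date that no source used here resolves, had the same layout. It measured 35.2, 34.8 and 36.6 FPKM in the scrambled controls, 80.1, 64.5 and 71.6 FPKM in the empty controls, and 63.3 to 80.4 FPKM in the 6 treated libraries. Its difference was -0.99 (limma BH-adjusted p = 0.0352).

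Csf3 encodes granulocyte colony-stimulating factor, a secreted cytokine that drives the making of neutrophils. It stood at 25.5, 29.9 and 21.4 FPKM in the scrambled and at 8.34, 8.07 and 7.41 FPKM in the empty controls. Knockdown libraries held 2.43, 8.94 and 12.4 FPKM and overexpression libraries 12.3, 17.2 and 12.6 FPKM, so the scrambled controls were above the other 9. Its difference of 1.56 (SE 0.128, limma BH-adjusted p = 0.0157) corresponded to mean levels 3.22-fold higher in the scrambled controls. The knockdown libraries spread widely for this gene, and in the 12-library fit its adjusted p was 0.0489.

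Cxcl2 encodes a chemokine that draws neutrophils through the receptor CXCR2. The scrambled libraries measured 62.3, 75.2 and 63.5 FPKM and the empty ones 29.4, 25.3 and 26.9 FPKM, a difference of 1.27 (SE 0.106, limma BH-adjusted p = 0.0157). With 19.9, 30.2 and 29.2 FPKM in knockdown and 36.8, 51.8 and 42.4 FPKM in overexpression, the treated groups were ordered the other way. The difference between the contrasts was 1.98 for Cxcl2 (adjusted p = 0.00266) and 2.52 for Csf3 (adjusted p = 0.0282), both from limma over 12 libraries.

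Pirb encodes an inhibitory immune receptor of myeloid cells that binds MHC class I molecules. The scrambled controls had 14.5, 17.2 and 18.3 FPKM and the empty controls 8.24, 7.87 and 7.88 FPKM. All 3 scrambled libraries were above the other 9, as knockdown held 5.21, 4.44 and 5.26 FPKM and overexpression 9.14, 8.71 and 7.20 FPKM. The difference was 0.97 (SE 0.102, limma BH-adjusted p = 0.0434), against -0.64 for knockdown minus overexpression. Pirb has close relatives in its receptor family, and reads shared with them could shift its level.

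Fos, an immediate early gene whose protein is part of the AP-1 transcription factor, passed the test in the same direction in the controls and in the treated libraries. Its levels were 71.9, 69.2 and 73.8 FPKM in the scrambled and 34.0, 39.2 and 31.8 FPKM in the empty controls, a difference of 1.02 (SE 0.0993, limma BH-adjusted p = 0.0352). Knockdown libraries had 54.1, 92.7 and 73.4 FPKM and overexpression libraries 33.9, 31.2 and 27.8 FPKM, a difference of 1.19 that passed in a fit of these 6 libraries alone (limma BH-adjusted p = 0.0276). The 6 libraries of the knockdown experiment were all above the 6 of the overexpression experiment. The difference between the 2 contrasts, -0.17, did not pass (adjusted p = 0.729).

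**Figure D3:**
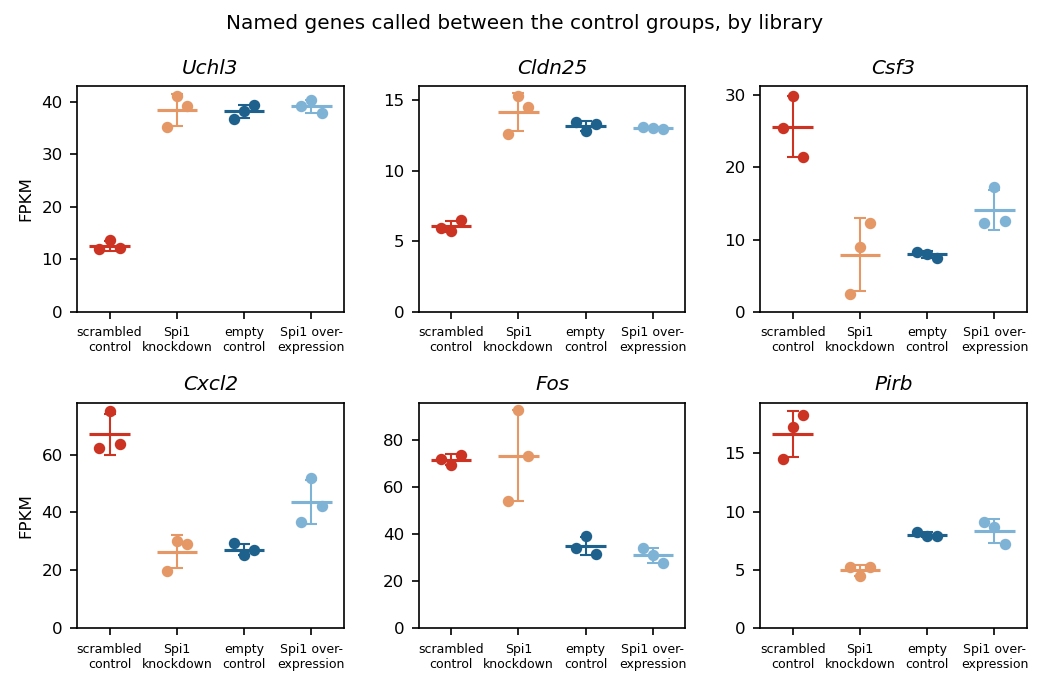
FPKM of the 6 called genes with a usable symbol in each of the 12 libraries, with the mean (line) and SD (bars) of 3 libraries per group. Uchl3 and Cldn25 are low in the scrambled controls alone, Csf3, Cxcl2 and Pirb are high there, and Fos is high in both groups of the knockdown experiment.

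Spi1 itself did not pass the test between the 2 kinds of control. Its levels were 159, 169 and 168 FPKM in the scrambled and 158, 117 and 131 FPKM in the empty controls. The groups did not overlap, though scrambled control 1 and empty control 1 were nearly equal. The difference was 0.30 (SE 0.12, 95% interval 0.01 to 0.58, limma BH-adjusted p = 0.302). For scale, the knockdown libraries held 50.9, 42.4 and 52.3 FPKM and the overexpression libraries 287, 224 and 206 FPKM.

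Of 42 genes listed as PU.1 targets and other myeloid genes, 40 were tested, and Pirb was the called member. The differences of 32 were above 0 and their median was 0.14, beside -0.04 over all tested genes, with a range from -0.28 to 0.97. The scrambled libraries were higher without overlap for 14 (background 7.14%) and lower for 2 (background 15.8%). The 12-library fit called 4 higher (background 0.67%) and 0 lower (background 3.5%). In the treated libraries, where Spi1 was lower in knockdown than in overexpression, the median of the same 40 was -0.31.

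Among these, Itgam, which encodes the alpha chain of the complement receptor CR3, had 211, 174 and 182 FPKM in the scrambled and 118, 137 and 128 FPKM in the empty controls. The groups did not overlap, and the scrambled controls were above the other 9 libraries, but the difference of 0.56 was not called (limma BH-adjusted p = 0.0961; 0.0249 in the 12-library fit). Fcgr1, the high affinity receptor for IgG, measured 72.2, 83.3 and 70.3 FPKM against 62.6, 40.7 and 48.6 FPKM. That difference of 0.58 was not called either (adjusted p = 0.16). Of 18 ETS factors 14 were tested and 0 called, with a median of -0.000972 and 11 of the 14 bounded within 1.5-fold (background 79.0%). The tested ETS factor with the smallest p was Gabpa, at 11.5, 10.5 and 11.9 FPKM against 14.5, 13.7 and 14.9 FPKM (difference -0.32, adjusted p = 0.142).

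Of the 40 gene lists, the one with the median farthest from 0 was that of G2 and mitosis, the phases in which a cell readies and carries out its division. All 41 listed genes were tested and all 41 had a difference below 0, from -1.12 to -0.37, with a median of -0.80. None passed in the 6-library fit, where the smallest BH-adjusted p from limma was 0.0824 (Prc1). An unadjusted p under 0.05 was reached by 40, the groups did not overlap for 38 (background 15.8% lower), and 34 were below the other 9 libraries (background 8.31%). The 12-library fit called 33 of the 41 lower (background 3.5%), and the fit without empty control 2 called 2 (background 0.804%). The median lay between -0.96 and -0.67 when any 1 control library was left out.

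The scrambled libraries differed among themselves in these genes. Relative to the mean of the 6 controls, the median of the list was -0.66, -0.47 and -0.10 in scrambled controls 1, 2 and 3, and 0.26, 0.30 and 0.65 in empty controls 1, 2 and 3. Scrambled control 3 was thus nearer to empty controls 1 and 2 than to scrambled control 1. The treated libraries were at 0.56, 0.43 and 0.53 in knockdown and 0.18, 0.08 and 0.54 in overexpression, all above the scrambled controls.

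Prc1, which bundles the microtubules of the dividing cell's midzone, had 10.2, 11.3 and 13.7 FPKM in the scrambled and 21.5, 22.9 and 27.7 FPKM in the empty controls. Its difference was -0.98 (SE 0.138). Anln, a scaffold of the contractile ring, had 7.89, 9.05 and 11.3 FPKM against 16.2, 18.3 and 20.4 FPKM (difference -0.89, limma BH-adjusted p = 0.0865). Both had adjusted p = 0.00858 in the 12-library limma fit, and in both the scrambled controls were below the other 9 libraries.

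Promoters of 3 members are printed because they carry 2 short motifs known from genes of this phase. Cell cycle genes of the G2 phase are known for the CHR element TTTGAA, which the MuvB core of the DREAM and MYB complexes binds, and for CCAAT boxes, which NF-Y binds. Shown are the 250 bases before the annotated start of Ccnb2 (cyclin B2, chr9:70421555-70421804, minus strand), Cdc20 (activator of the anaphase-promoting complex, chr4:118437344-118437593, minus strand) and Ube2c (its ubiquitin-conjugating enzyme, chr2:164769679-164769928, plus strand), from RefSeq on GRCm38.p6. Capitals mark TTTGAA and CCAAT on either strand, so that TTCAAA and ATTGG are the same motifs read from the other strand.
Ccnb2: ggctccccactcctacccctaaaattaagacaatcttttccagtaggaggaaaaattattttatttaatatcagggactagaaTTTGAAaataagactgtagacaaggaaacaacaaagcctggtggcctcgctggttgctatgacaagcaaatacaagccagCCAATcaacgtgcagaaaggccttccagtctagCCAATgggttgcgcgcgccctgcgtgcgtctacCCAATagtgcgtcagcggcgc
Cdc20: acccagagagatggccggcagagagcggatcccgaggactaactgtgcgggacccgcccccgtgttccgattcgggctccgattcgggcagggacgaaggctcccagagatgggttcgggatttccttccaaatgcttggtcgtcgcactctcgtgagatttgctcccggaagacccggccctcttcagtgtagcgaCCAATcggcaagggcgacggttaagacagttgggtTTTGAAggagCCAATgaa
Ube2c: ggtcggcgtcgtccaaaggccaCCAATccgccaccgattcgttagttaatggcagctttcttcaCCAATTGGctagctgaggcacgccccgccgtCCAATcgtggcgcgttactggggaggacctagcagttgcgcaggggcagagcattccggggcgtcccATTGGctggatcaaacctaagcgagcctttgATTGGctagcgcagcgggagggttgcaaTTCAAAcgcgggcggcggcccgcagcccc
Each holds 1 TTTGAA, and CCAAT occurs 3 times in Ccnb2, 2 times in Cdc20 and 6 times in Ube2c, where a pair of matches overlaps in CCAATTGG. These 3 genes were picked after their values were seen.

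The levels of the 3 genes followed the list. Ccnb2 had 9.70, 9.22 and 17.3 FPKM in the scrambled and 17.8, 27.9 and 36.7 FPKM in the empty controls, with scrambled control 3 just under empty control 1. Cdc20 had 14.1, 17.8 and 24.4 FPKM against 36.8, 33.7 and 49.6 FPKM. Ube2c had 47.0, 48.5 and 63.8 FPKM against 87.9, 98.9 and 127 FPKM. Differences were -1.12, -1.07 and -0.96, with limma BH-adjusted p of 0.159, 0.103 and 0.0928 over 6 libraries, and 0.0614, 0.0249 and 0.0198 over 12.

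Motif shares were counted in windows from 250 bases before to 50 after the start, 1 window per gene, both strands. TTTGAA was in 25 of 34 G2/M promoters found in the RefSeq table (73.5%), in 11.8% of 8174 promoters of tested genes and in 18.1% of all 27025 promoters. CCAAT was in 26 of the 34 (76.5%), beside 39.4% of tested genes. The letters GCGGGAA, a form of the E2F site, were in 0 of the 34 but in 15 of 35 promoters of G1/S and replication genes (42.9%), beside 8.85% of tested genes. GAGGAAG, a form of the PU.1 site, was in 11 of 28 promoters of PU.1 target and myeloid genes (39.3%), beside 13.7% of tested genes. A match describes these letters only and shows no binding.

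Genes of earlier cell cycle steps had smaller differences in the same direction. Of 44 G1/S and replication genes, 42 were below 0, with a median of -0.36. None was called, 20 were lower without overlap (background 15.8%), and the 12-library fit called 6 lower (background 3.5%). Gins1, part of the replicative helicase, had 9.51, 12.8 and 11.99 FPKM in the scrambled and 19.1, 17.5 and 19.9 FPKM in the empty controls (difference -0.68, limma BH-adjusted p = 0.0928). By contrast, Pcna, the sliding clamp of DNA polymerase, had overlapping groups and a difference of -0.14 (adjusted p = 0.714). Empty control 2 also sat low in this list, at -0.07 relative to the mean of the controls beside 0.31 and 0.34 for empty controls 1 and 3, and the median without it was -0.52.

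DNA repair, chromatin and nuclear envelope lists leaned the same way. The median was -0.37 over 32 repair genes, -0.46 over 19 histone and chromatin genes and -0.32 over 21 lamina and nucleoporin genes, with 22, 14 and 12 members lower without overlap (background 15.8%) and 0 called in each. Parp1, which marks DNA breaks with poly-ADP-ribose, stood at 38.5, 39.8 and 44.7 FPKM in the scrambled and 60.4, 61.0 and 65.6 FPKM in the empty controls. Fancd2, of the Fanconi pathway for crosslinks, stood at 4.90, 4.38 and 6.09 FPKM against 8.61, 10.8 and 11.6 FPKM. Differences were -0.59 and -0.89 (limma BH-adjusted p = 0.0846 and 0.0865), and both genes were lower in the scrambled controls than in each of the other 9 libraries.

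Targets of p53 had a median near 0 with no fixed sign. Of 25 listed genes 20 were tested, with 9 above and 11 below 0, a median of -0.03, which was 0.04 without empty control 2 and 0.01 under median-of-ratios scaling. Without overlap, 1 was higher (background 7.14%) and 1 lower (background 15.8%), and 0 were called. Cdkn1a, the p53-driven inhibitor of cyclin-dependent kinases, had overlapping groups and a difference of 0.30 (limma BH-adjusted p = 0.577).

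No gene of the small RNA machinery was called. All 19 listed genes were tested, the median was -0.02 (0.02 under median-of-ratios scaling), and for 17 the 95% interval lay within 1.5-fold (background 79.0%). Dicer1, which cuts hairpins into guides, had 8.03, 7.93 and 8.87 FPKM in the scrambled and 8.99, 8.23 and 9.35 FPKM in the empty controls, with overlapping groups and a difference of -0.09 (95% interval -0.29 to 0.12). Xpo5, which encodes exportin-5, had the largest difference of the list, at 13.6, 15.7 and 14.1 FPKM against 22.7, 15.6 and 19.4 FPKM. Empty control 2 lay among the scrambled libraries there, and the difference of -0.38 was not called (95% interval -0.71 to -0.05, limma BH-adjusted p = 0.268; -0.51 and 0.0672 without empty control 2). Drosha, the nuclear enzyme ahead of Dicer, had 22.4, 22.3 and 21.6 FPKM against 29.7, 25.7 and 29.2 FPKM. That difference of -0.33 did not pass in the 6-library fit (limma BH-adjusted p = 0.142; 0.0376 with 12 libraries). Ago2, the Argonaute that cuts targets, had 29.0, 27.6 and 29.1 FPKM against 31.7, 38.2 and 35.6 FPKM (difference -0.29, adjusted p = 0.213).

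Interferon genes had differences above 0 throughout, and their median depended on empty control 2. Of 43 listed genes 42 were tested, all 42 with a difference above 0, a median of 0.46 and a range from 0.05 to 1.11. None was called, and 17 were higher in the scrambled controls without overlap (background 7.14%). The list's median relative to the mean of the controls was 0.10, 0.48 and 0.16 in scrambled controls 1 to 3 and 0.09, -0.76 and -0.05 in empty controls 1 to 3. Scrambled control 1 and empty control 1 were thus level, and empty control 2 was far below. Without empty control 2 the median difference was 0.19.

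The treated libraries, none of which is a control, had a like layout, and same-numbered empty and overexpression libraries deviated together. Knockdown minus overexpression gave a median of 0.45 over the interferon genes, with 41 of 42 above 0, and 0.18 without overexpression library 2. That library's list level was -0.83, beside 0.10 and -0.07 in the other overexpression libraries. Ifit1, an interferon-induced protein that binds foreign RNA ends, had 26.7, 52.4 and 31.0 FPKM in the scrambled and 37.2, 5.79 and 26.7 FPKM in the empty controls. Phf11b, an interferon-induced zinc finger gene, was the list member with the smallest p, at 68.1, 70.4 and 61.3 FPKM against 46.4, 49.2 and 52.3 FPKM (difference 0.43, limma BH-adjusted p = 0.112). For Phf11b empty control 2 lay inside its group.

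Sensors of double-stranded RNA and of cytosolic DNA had 23 of 26 tested genes above 0, a median of 0.30 and 0 called. Without empty control 2 the median was 0.11. Eif2ak2, which encodes the kinase PKR that double-stranded RNA switches on, had 28.9, 32.0 and 28.9 FPKM in the scrambled and 35.4, 18.1 and 27.1 FPKM in the empty controls, where empty control 1 was the highest of the 6. Oas1g, of the enzymes that make 2-5A after sensing such RNA, had 70.3, 72.0 and 62.3 FPKM against 50.9, 31.5 and 43.6 FPKM. The Oas1g difference of 0.71 was not called (limma BH-adjusted p = 0.128).

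**Figure D4:**
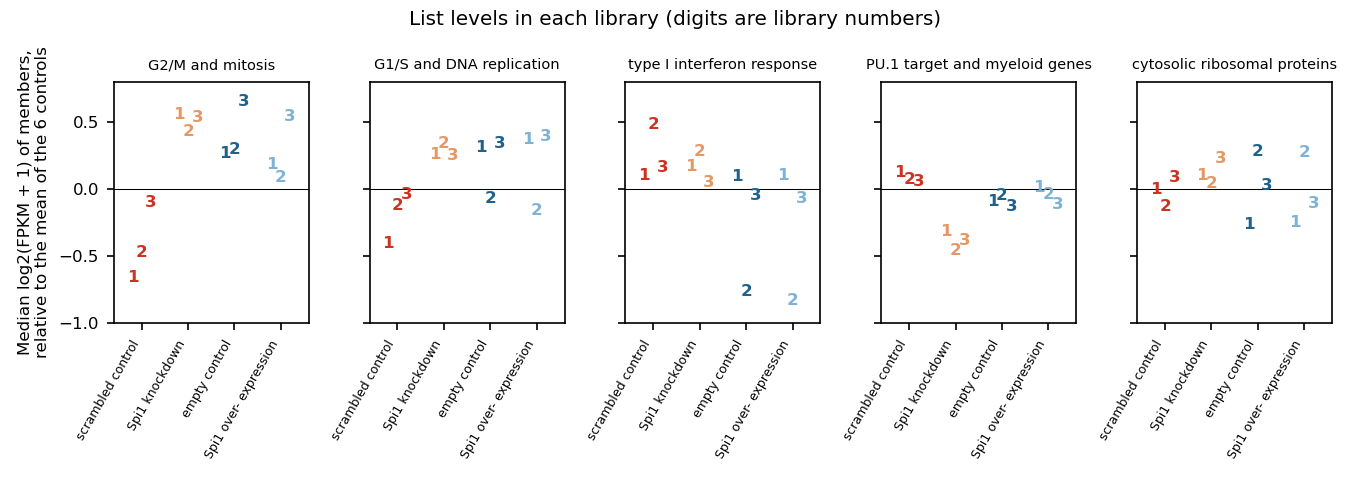
Digits are library numbers, and their height is the median level of a list's tested genes in log2(FPKM + 1), relative to the mean of the 6 controls. G2/M genes are low in the 3 scrambled controls, at -0.66, -0.47 and -0.10. Library 2 of both groups of the overexpression experiment is low for interferon genes, at -0.76 and -0.83.

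In the list of NF-kB and inflammatory cytokines, 26 of 32 tested genes were above 0 with a median of 0.18, 10 were higher (background 7.14%) and 2 lower (background 15.8%) without overlap, and Csf3 was the 1 called. Tnf, the main early cytokine of macrophages, had overlapping groups at 176, 179.6 and 153 FPKM in the scrambled and 168, 176 and 148 FPKM in the empty controls (difference 0.05, 95% interval -0.20 to 0.30). Ptgs2, the inducible cyclooxygenase, had 39.2, 33.0 and 26.7 FPKM against 17.9, 14.1 and 16.1 FPKM. Nos2, the inducible nitric oxide synthase, had 149, 59.1 and 53.6 FPKM against 11.8, 23.9 and 29.5 FPKM, with scrambled control 1 far above the rest. For both genes the scrambled controls were above the other 9 libraries, yet the differences of 0.98 and 1.89 were not called (limma BH-adjusted p = 0.0865 and 0.127). These 3 genes were chosen after their values were seen.

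Of 24 chemokines and receptors 12 were tested, 10 of them above 0, with a median of 0.46, and Cxcl2 was the 1 called. Without empty control 2 the median was 0.32. That library's list level was -0.79, beside -0.10 and -0.05 in empty controls 1 and 3. Ccl7 and Ccl2, ligands of CCR2 that draw monocytes, showed the place of empty control 2. Ccl7 had 589, 472 and 392 FPKM in the scrambled and 285, 40.5 and 225 FPKM in the empty controls. Ccl2 had 1417, 1488 and 1159.6 FPKM against 1126, 238 and 900.2 FPKM. Groups did not overlap for either gene, but the empty controls spanned a wide range, and the differences of 1.78 and 1.11 were not called (limma BH-adjusted p = 0.272 and 0.386).

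Of 26 immediate early genes 23 were tested. The median was 0.20, 17 were above 0, 9 were higher without overlap (background 7.14%) and 1 lower (background 15.8%). Fos was the 1 called, and 3 were called higher without empty control 2 (background 0.134%). Dusp1, a phosphatase that switches off MAP kinases, had 59.6, 53.5 and 63.6 FPKM in the scrambled and 31.3, 32.0 and 23.05 FPKM in the empty controls, a difference of 1.02 that was not called (limma BH-adjusted p = 0.0824; 0.00917 with 12 libraries). Jun, the partner of Fos in AP-1, had 44.7, 43.2 and 44.9 FPKM against 39.1, 40.1 and 37.6 FPKM. Its difference of 0.18 was far smaller than that of Fos and was not called (adjusted p = 0.318).

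Some genes outside the lists, chosen after their values were seen, had small p-values as well. Slfn4, a Schlafen family gene of myeloid cells, had 465, 349 and 327 FPKM in the scrambled and 131, 126 and 175 FPKM in the empty controls (difference 1.39, limma BH-adjusted p = 0.0772). Ipo5, a nuclear import receptor, had 50.7, 54.0 and 56.5 FPKM against 86.7, 101 and 91.3 FPKM, and Npepl1, an aminopeptidase-like gene, had 24.0, 25.4 and 26.2 FPKM against 41.1, 40.2 and 45.3 FPKM. In all 3 the scrambled controls stood outside the other 9 libraries. Efcab14, an EF-hand gene, had 4.70, 4.61 and 4.70 FPKM against 9.06, 7.70 and 8.28 FPKM, with knockdown between them at 5.43, 5.32 and 5.80 FPKM. Ipo5, Npepl1 and Efcab14 had the same adjusted p of 0.0662 in the 6-library fit, and 0.00399, 0.00166 and 0.00375 with 12 libraries.

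Mef2c, a transcription factor of the microglial programme, was listed among macrophage lineage factors and had 9.85, 9.50 and 11.2 FPKM in the scrambled and 15.3, 17.3 and 16.2 FPKM in the empty controls. Arpc5, a subunit of the actin-branching complex, had 98.6, 98.6 and 103 FPKM against 179, 144 and 154 FPKM. Both lay below the other 9 libraries, with differences of -0.63 and -0.66 (limma BH-adjusted p = 0.0846 for each). Their lists as a whole did not lean that way: 18 of 23 lineage factors and 15 of 27 actin genes were above 0.

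Genes of core metabolism and protein turnover were mostly bounded within narrow intervals. The 58 cytosolic ribosomal protein genes had a median of -0.03, 0 without overlap (background 22.9%), and 55 bounded within 1.5-fold (background 79.0%). That median ranged from -0.16 to 0.10 as single libraries were left out and was 0.02 under median-of-ratios scaling, so no direction is given. All 51 tested respiratory chain genes and all 31 tested proteasome genes were bounded within 1.5-fold (background 79.0%), with medians of 0.00 and -0.06. Gapdh, the glycolytic enzyme often used as a reference, had 943, 974 and 929.7 FPKM in the scrambled and 926, 877 and 902 FPKM in the empty controls (difference 0.07, 95% interval -0.10 to 0.25). Differences of the 16 listed reference genes ran from -0.37 to 0.31. Of these 12 were bounded within 1.5-fold, near the share over all tested genes (79.0%).

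Lysosome genes, with 42 tested, had a median of 0.08 and 38 bounded within 1.5-fold (background 79.0%). Cholesterol synthesis genes, with 31 tested, had a median of -0.03 and 29 so bounded. Of 22 heat shock and chaperone genes 18 were tested, 14 below 0, with a median of -0.15, 9 lower without overlap (background 15.8%) and 0 called. Hspa9, the mitochondrial chaperone, had 145, 153 and 157 FPKM in the scrambled and 207, 197 and 199 FPKM in the empty controls (difference -0.40, limma BH-adjusted p = 0.0993). Of 22 MHC class I genes 16 were above 0 and 0 were called, and B2m, the shared light chain, had 4421, 3777 and 3708 FPKM against 3185, 3344 and 3043.5 FPKM (difference 0.31, adjusted p = 0.204).

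**Figure D5:**
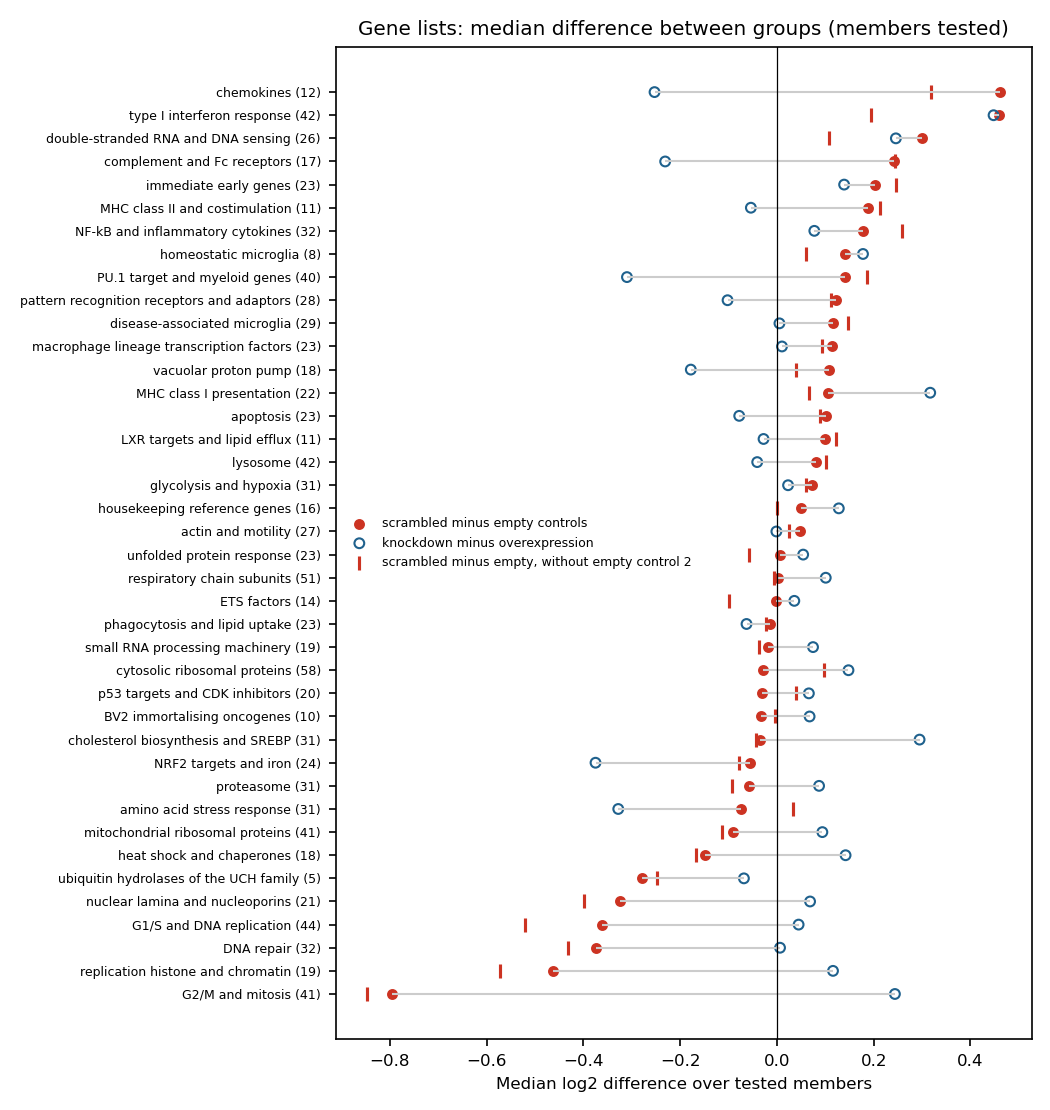
Each row is a gene list with its number of tested members. Filled points are the median log2 difference scrambled minus empty, ticks the same without empty control 2, and open circles knockdown minus overexpression. G2/M genes are at -0.80 between the controls and 0.24 between the treated groups, while interferon genes are near 0.46 and 0.45.

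The treated libraries carry the same pair of experiments, with opposite intended changes of Spi1, and share no library with the controls. Same-numbered libraries within an experiment deviated together, however, so the 2 contrasts and the shared genes counted here are not independent. Knockdown minus overexpression gave 263 calls among 11239 tested genes, 2.34% of them, 103 higher (0.916%) and 160 lower (1.42%). Of the 799 genes higher in scrambled than in empty controls without overlap, 28.4% were also higher in knockdown than in overexpression without overlap, which is 227 genes and 12.7% of the 1781 genes higher there (15.9% of those tested). Of the 1765 lower genes, 14.1% were also lower there, which is 248 genes and 19.0% of the 1302 lower in knockdown (11.6%). The opposite direction was found for 155 of the higher genes, 19.4%, and for 254 of the lower genes, 14.4%.

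Whether the control difference equalled the treated difference was tested over all 12 libraries. The 2 differed at an adjusted p under 0.05 for 544 genes, 4.86% of 11197 tested, 216 with a higher (1.93%) and 328 with a lower (2.93%) difference between the controls (limma, BH). This contrast also holds the effects of lowering and raising Spi1, and Spi1 itself differed by 2.56. It contains the control difference too, so genes named for a large control difference were favoured to pass. Within each experiment, libraries with the same number shared their deviations. With the number as a block in each experiment, 4650 genes passed, 41.5% of those tested. Under median-of-ratios scaling the split of the unblocked calls turned, to 342 higher and 251 lower. Of the 41 G2/M genes 28 passed, and 40 with the block. Of the 42 interferon genes 0 passed, and 12 with the block.

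Each group of 3 was also set against the other 9 libraries. All 3 scrambled libraries were above the other 9 for 298 genes (2.66%) and below them for 931 (8.31%), together 11.0% of those tested. For the empty controls the counts were 24 (0.214%) and 7 (0.0625%), together 0.277%. For knockdown libraries they were 744 (6.64%) and 649 (5.8%), together 12.4%, and for overexpression libraries 43 (0.384%) and 84 (0.75%), together 1.13%. Empty and overexpression libraries of the same number were the closest of all pairs, with median absolute differences of 0.071, 0.0761 and 0.0738 for numbers 1, 2 and 3, while scrambled and knockdown libraries differed by 0.153 at least.

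Genes with the largest spread inside a control group were named by rule. Among the empty controls they were Ccl7, Ccl2, Cmpk2, Ifit1 and H2-M2, and in each of them empty control 2 was the odd library. Cmpk2, an interferon-induced mitochondrial kinase, had 269, 43.4 and 229 FPKM in the empty controls, while H2-M2, a nonclassical MHC class I gene, had 2.17, 16.7 and 4.68 FPKM. Overexpression library 2 was likewise apart, at 42.7 FPKM for Cmpk2 and 10.2 FPKM for H2-M2. Among the scrambled controls they were Mmp12, Mir5130, Mir7238, Snord1c and Snord98, of which the last 4 are short RNA entries that polyA libraries are not made to capture. Those 4 averaged only 20.7, 7.67, 8.0 and 4.0 reads in the scrambled controls, in that order. Mir5130, Mir7238 and Snord1c also overlap exons of other genes. Mmp12, the macrophage elastase, had 45.3, 8.21 and 4.85 FPKM in the scrambled controls, where scrambled control 1 was alone, and 7.29, 2.99 and 3.90 FPKM in the empty controls.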

How the data were processed

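RNA of sorted BV2 cells was measured in 12 libraries, 3 per group, grouped by the treatment labels with numbers from the titles. Per the labels' protocols, mRNA went through a TruSeq v2 preparation, a kit without strand marks, and 100-base single reads. As deposited by the authors, values are FPKM in 2 tables of 24062 entries each. STAR 2.5.2a, featureCounts, DESeq2 1.14, CASAVA 1.8.2 and bcl2fastq are named in the submitters' processing notes, with the build mm10. Their annotation and strand setting: not given in the sources used here. That the unit is FPKM was read from the values, taken as whole multiples of a step per gene and library. With library totals set near the summed reads, the steps gave gene lengths whole within 0.01 bases. This held for 14114 of 14114 genes above 0 in 10 or more libraries, with 83 of all genes rescaled by a whole factor. Whole reads were recovered for 17838 of 17838 genes above 0 (100.0% of values, tolerance 0.001 reads). Each step was chosen to meet that tolerance, so this share is no test of the recovery. The reads served for depth and for limma-voom alone, which called 18 genes between the controls. The tables were scaled separately by library totals, so levels set across them rest on that scaling.

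The tables were joined by symbol (4 repeated entries left out), and log2(FPKM + 1) was tested for genes whose 6 compared libraries averaged 1 FPKM or more, with limma 3.58.1 in R 4.3.3, with Benjamini-Hochberg (BH) adjustment over all tested genes at 0.05. The fit between the controls was also run on simulated reads drawn independently for each library, which held no deviations shared between libraries. A second contrast, knockdown minus overexpression, and the difference between the 2 contrasts were fitted likewise. A fold on the log2(FPKM + 1) scale understates changes of low genes. Libraries of the same number were checked for pairing: their deviations correlated at 0.403, 0.537 and 0.348 (scrambled and knockdown) and 0.796, 0.849 and 0.521 (empty and overexpression), but at -0.268, -0.403 and 0.132 for scrambled and empty.

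The members, lists and rules were chosen with earlier results of these data known. Genes were named by this rule: Spi1 and Uchl3, up to 10 called genes per direction without overlap, up to 5 per direction set apart from the other 9 libraries, per list up to 4 called members or the 2 of smallest p, and the 5 genes of largest spread in each control group at a mean of 5 FPKM. Symbols turned into dates were skipped by it, which left out 1 of the 7 called genes. Another gene picked by it did not pass the test, and its values are not reported here. Others are said to be chosen after their values were seen. So were Sall1, Siglech, P2ry12, Cx3cr1, Csf1r, Tyrobp, Pcna, Cdkn1a, Dicer1, Xpo5, Jun, Dusp1, Gapdh, Eif2ak2, Uchl1 and Bap1. Of the 40 lists, those not described had 0 called members. Gene positions are from GENCODE M21 (mm10) and promoters from the RefSeq table, first entry per gene. Alternatives were other pseudocounts (0.1 and 5), filters, scalings, fits, a replicate block and each library left out.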

Additional observations from a re-analysis of the deposited data

Results flagged for a closer look

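For 31 of 89 genes named by the rule, control and treated differences differed in limma over all 12 libraries (BH-adjusted p under 0.05). In the same fit 544 of all 11197 tested genes passed, 4.86%. Most named genes were picked by their control difference, which is part of this test, so passing was favoured and their count is no separate result. The fit had no block for library number. With that block 41.5% of all tested genes passed. Ccl7, outside the 31, had a limma BH-adjusted p of 0.145 without and 0.000726 with it. Values here are the control difference minus the treated difference in log2 units, and each also carries the effects of lowering and raising Spi1. Spi1 itself had 2.56. Of the 4 called genes with higher levels in the scrambled controls, Csf3 had 2.52, Cxcl2 1.98 and Pirb 1.61, while Fos did not pass. Of the 3 with lower levels, Uchl3 had -1.51 and Cldn25 -1.12. The third, the entry 2-Sep, was skipped by the rule and had -1.14 (limma BH-adjusted p = 0.00266).

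Among genes of cell division and DNA, Prc1 had -1.24, Lmnb1 -1.21, Fancd2 -1.03, Anln -0.927, Smc4 -0.88, Ncaph -0.848, Parp1 -0.796 and Gins1 -0.606. Positive values included 1.24 for Cd86, 1.2 for Itgam, 1.13 for Msr1, 1.1 for Fcgr1, 0.836 for Cd52 and 0.674 for Lgals3. H2-Q6, a class I gene with near-identical relatives, had -1.54. The other genes had -0.848 (Mef2c), -0.697 (Stard4), -0.693 (Arpc5), -0.467 (Bag3), -0.453 (Kdr), -0.409 (Gabpa), -0.396 (Npm1), -0.39 (Acaca), 0.411 (Atp6v1e1) and 0.633 (Dnajb9).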

How the results depend on the processing

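Between the control groups, 7 calls became 467 with all 12 libraries in the fit, 18 with limma-voom on recovered reads and 4 without a filter on low values. Leaving out 1 library gave 0 to 105 calls, the most without empty control 2. With the number as a replicate block it was 0, where the smallest unadjusted p was 2.35e-05. The numbers do not pair scrambled with empty libraries, so this block takes away degrees of freedom. Other pseudocounts, scalings and a stricter filter gave 6 to 10. Knockdown minus overexpression gave 263 calls, 729 with all 12 libraries, 3 with the replicate block, and 4 (without knockdown library 3) to 684 (without overexpression library 2) without 1 library. The difference between the contrasts gave 544 calls, 4650 with the replicate block, and 111 (without scrambled control 2) to 573 (without empty control 1) without 1 library. It moved beyond 1.5 times without any knockdown library, overexpression library 1 or 2, empty control 3 or scrambled control 1 or 2, in which fits it was 111 to 361. Without both libraries numbered 2 of the overexpression experiment, an alternative chosen after seeing the data, it was 589. Its higher and lower calls were 361 and 254 under trimmed-mean scaling. The cause of these shifts was not tested.

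Of 89 named genes under 16 alternatives, 1338 values kept direction and call, 37 lost the call, 31 gained it and 9 turned, all of the last uncalled. Lck turned to 0.00959 and 0.0113 under median-of-ratios and trimmed-mean scaling, and to 0.0394 and 0.016 without empty control 1 and scrambled control 3, with a lowest value of -0.0944. Without 1 library, Mir7238 lay between -1.02 and 0.0484, Rpl3 between -0.453 and 0.0227, S100a8 between -0.141 and 0.228 (-0.0756 without empty control 1) and Snord98 between -0.809 and 0.181. With 3 libraries a group, small differences are bounded but not resolved.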
